A study of Mus musculus with 14 samples.

Results

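The expression of 36 genes of the oligodendrocyte lineage was followed through the cortex of 14 mice. They were chosen by name, as genes that mark oligodendrocyte precursors, newly formed oligodendrocytes and myelinating oligodendrocytes, and they are 36 of the 34193 gene symbols in the deposited table. All 36 were found in the table and all 36 had enough reads to be tested. By role they comprise 2 precursor genes, 3 lineage transcription factors, 3 genes of newly formed cells and 28 genes of the myelinating stage. The last group holds 6 genes of compact myelin and the sheath membrane, 6 of the inner tongue, adhesion and junctions, 7 enzymes, and 9 carriers, receptors or others.

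The study sequenced RNA from the cortex of C57BL/6J mice at 8 weeks of age. Of these, 7 were heterozygous for a knockout of Dnmt3a, labelled DNMT3AKO/+, and 7 were wild-type (WT) littermates, with 4 females and 3 males in each genotype. The labels name no Cre driver or cell type for the knockout. Tissue was dissected cold and flash-frozen, and directional libraries were read as single ends. Each sample was treated as 1 mouse, and p-values measure the spread between these samples. The sample titles begin with 1 of 6 numbers, each shared by mice of both genotypes and of 1 sex: 046, 048 and 119 for males and 047, 139 and 141 for females. Prefix 141 holds 4 mice and each of the others holds 2. What this number stands for is not stated in the labels.

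Oligodendrocyte precursors divide under platelet-derived growth factor, leave the cell cycle, pass through a short newly formed stage and then wrap axons with compact myelin. In the mouse cortex this differentiation is under way during the first postnatal weeks and goes on in young adults. DNMT3A is a de novo DNA methyltransferase, and DNA methylation of promoters and gene bodies is laid down in all lineages of the brain, oligodendrocytes included.

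Library totals ran from 8951835 to 14335406 counts. Levels are given as CPM, which are counts relative to library size after scaling between libraries. Dnmt3a, the targeted gene, had a lowest, median and highest level of 124, 149 and 164 CPM in wild type and 84.3, 96.8 and 118 CPM in heterozygotes, so every library went with its label (log2 change -0.57, SE 0.0752, adjusted p = 0.00774 by edgeR). The deposited counts are given per gene symbol, so reads of the knockout allele may be included. The libraries of prefixes 119 and 141, 3 of each genotype, stood apart from the other 8 in the first principal component of all tested genes, which held 34.3% of the variance. The genotype comparison is also given for these 6 mice alone and for the other 8 alone. The tests between title prefixes and between sexes, and those of each sex alone, were not repeated without these 6 mice. Mitochondrial transcripts other than ribosomal RNA made up 1.82% ± 0.269 of wild-type and 1.37% ± 0.234 of heterozygous counts in prefixes 119 and 141 (SD, n = 3 each), against 0.698% ± 0.136 and 0.695% ± 0.0835 in the other 4 prefixes (SD, n = 4 each).

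The tissue held clear oligodendrocyte signal. Mbp, which encodes myelin basic protein, the structural protein that holds the cytoplasmic faces of the sheath together, stood at the 99.6th percentile of mean CPM over the 13815 tested genes. Mog, the surface glycoprotein of the outermost myelin layer, stood at the 72.1st percentile. Precursor genes were also present, with Pdgfra at the 77.5th percentile and Cspg4 at the 62.6th.

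Levels of different genes were compared per kilobase of exon. In wild type Mbp was highest at 179 CPM per kb, followed by Cnp at 147, Mobp at 114, Cldn11 at 88.4, Mal at 86.4, Qdpr at 81.0 and Trf at 72.4. Cnp encodes the phosphodiesterase of the non-compact myelin channels, Mobp a small basic protein of compact myelin, Cldn11 the claudin of myelin tight junctions and Mal a lipid-raft protein of the sheath. Precursor genes lay far below these most abundant genes, with Pdgfra at 8.48 and Cspg4 at 4.57 CPM per kb. Both fell inside the range of the 28 myelinating-stage genes, 3.81 to 179 CPM per kb. Enpp6, a choline phosphodiesterase that marks newly forming oligodendrocytes, was the lowest of the 36 at 1.55 CPM per kb. These lengths come from an annotation of a later mouse build than the counts, matched by symbol.

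Promoter sequence was found for 25 of the 36 genes in RefSeq (GRCm38.p6, 250 bases before to 50 after each start), and 19 of these had a single promoter. The 4 printed here belong to genes that the results below turn on, and they were chosen after their values were seen. Mobp and Qdpr were higher in prefixes 119 and 141 than in the other prefixes, Gpr37 was lower there, and Enpp6 marks the newly formed stage. Capitals mark CpG dinucleotides, which are among the sites that DNMT3A can methylate. Mobp lies at chr9:120149492-120149791 (plus strand), Qdpr at chr5:45450180-45450479 (minus strand), Gpr37 at chr6:25689931-25690230 (minus strand) and Enpp6 at chr8:46986637-46986936 (plus strand).
Mobp: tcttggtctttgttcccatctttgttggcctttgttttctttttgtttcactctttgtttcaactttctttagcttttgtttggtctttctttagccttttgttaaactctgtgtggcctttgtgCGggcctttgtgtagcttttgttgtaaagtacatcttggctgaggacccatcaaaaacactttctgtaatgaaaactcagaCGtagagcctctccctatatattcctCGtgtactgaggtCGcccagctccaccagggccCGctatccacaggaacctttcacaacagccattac
Qdpr: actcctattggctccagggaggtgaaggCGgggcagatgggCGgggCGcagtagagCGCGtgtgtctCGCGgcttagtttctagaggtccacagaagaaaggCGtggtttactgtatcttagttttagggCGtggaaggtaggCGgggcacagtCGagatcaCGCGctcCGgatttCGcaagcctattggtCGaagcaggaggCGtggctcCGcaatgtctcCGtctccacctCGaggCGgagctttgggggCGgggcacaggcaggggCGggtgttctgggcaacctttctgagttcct
Gpr37: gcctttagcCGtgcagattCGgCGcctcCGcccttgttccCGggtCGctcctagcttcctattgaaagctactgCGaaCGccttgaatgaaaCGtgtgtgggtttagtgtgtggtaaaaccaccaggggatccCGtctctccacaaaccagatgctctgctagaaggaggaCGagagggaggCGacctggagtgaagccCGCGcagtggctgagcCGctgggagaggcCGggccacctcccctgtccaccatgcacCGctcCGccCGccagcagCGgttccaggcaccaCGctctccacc
Enpp6: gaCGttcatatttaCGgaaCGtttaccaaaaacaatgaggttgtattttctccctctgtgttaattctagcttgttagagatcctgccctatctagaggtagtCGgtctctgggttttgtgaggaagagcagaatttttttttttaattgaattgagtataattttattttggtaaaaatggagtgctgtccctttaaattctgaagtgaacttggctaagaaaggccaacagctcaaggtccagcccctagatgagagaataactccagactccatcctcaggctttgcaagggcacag
Mobp has 5 CpGs and Enpp6 has 4, while Qdpr has 23 and Gpr37 has 21. The median over all 32851 mouse promoters of this length was 7. Of the 19 genes with 1 promoter, 8 had fewer than 10 CpGs (42.1%, against 56.5% of all promoters). The SOX motifs ACAAAG and ACAATG, searched on both strands, matched in 6 of these 19 (31.6%) and in 28.6% of all promoters. Mobp and Enpp6 each held a match and Qdpr and Gpr37 held none of these letters. Whether CpG number goes with the levels was not tested. DNA methylation itself was not measured in the data used here.

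None of the 36 genes passed the test between genotypes across the 14 mice. Of 13815 genes, 2 passed the threshold (0.0145% of those tested, adjusted p under 0.05 by edgeR's quasi-likelihood test with sex as a term), and none of the 36 was among them. The smallest adjusted p of the 36 was 0.962. The log2 change was above 0 in 24 of the 36, against 50.9% of all tested genes, with a median of 0.12 over the 36 and 0.0024 over all genes. At an unadjusted p under 0.05, 7 of the 36 were higher in heterozygotes and none was lower, where 1.75% of all genes were higher by that rule. DESeq2 also called none of the 36, among 11 genes called (0.0796%). No gene of the 36 had genotype ranges that did not overlap, a pattern with heterozygotes higher in 0.0796% of all genes and lower in 0.0434%. Marker genes of other cell types also leaned to 1 side in this fit, with none called: 0 of 15 astrocyte genes were above 0 (median -0.19), 1 of 12 microglial genes (-0.095), 2 of 12 endothelial and pericyte genes (-0.14), 8 of 10 excitatory neuron genes (0.12) and 8 of 8 inhibitory neuron genes (0.057). The astrocyte gene Agt was called with the prefix as a block. Their part in the oligodendrocyte values was not tested. In bulk tissue, a change in the number of cells of a type and a change in RNA per cell cannot be told apart.

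**Figure D1:**
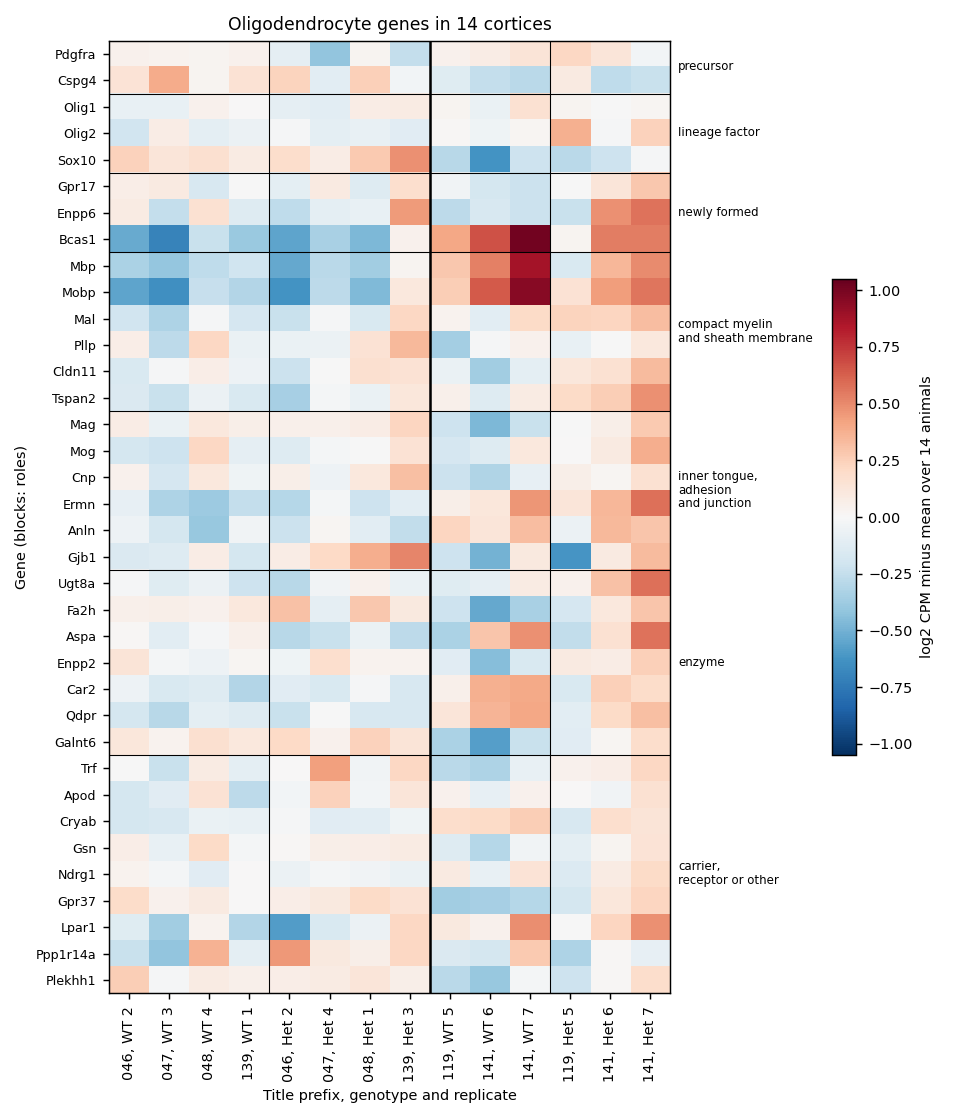
Level of each of the 36 genes (rows, grouped by role) in each of the 14 mice (columns, by title prefix, genotype and replicate), as log2 CPM minus that gene's mean over all mice; red is above the mean and blue is below. Bcas1, Mbp and Mobp are blue in nearly all mice left of the thick line (prefixes 046, 047, 048 and 139) and red in nearly all mice right of it (119 and 141), while Sox10 shows the opposite.

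The 2 precursor genes had values below 0. Pdgfra, the platelet-derived growth factor receptor of precursors, had a lowest, median and highest level of 72.9, 73.6 and 78.3 CPM in wild type and 53.4, 70.1 and 83.2 CPM in heterozygotes. Wild-type mice kept to a narrow band, and heterozygotes lay on both sides of it (log2 change -0.10, SE 0.0785). Cspg4, which encodes the NG2 proteoglycan, had 30.0, 37.3 and 47.7 CPM in wild type and 30.3, 35.8 and 43.4 CPM in heterozygotes, with ranges that overlapped almost fully (-0.031, SE 0.103). In the other 4 prefixes taken alone, all 4 heterozygotes had less Pdgfra than all 4 wild-type mice, at 53.4, 60.1, 67.0 and 72.7 CPM against 72.9, 73.2, 73.6 and 73.8 CPM. This pattern was found in 1.37% of all genes. Pdgfra was the only 1 of the 36 with it, and it was not called there.

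None of the lineage factors passed the threshold. Olig2, the basic helix-loop-helix factor needed for the lineage, had 24.1, 27.0 and 29.3 CPM in wild type and 25.5, 27.5 and 35.9 CPM in heterozygotes (lowest, median, highest), with a log2 change of 0.092 (SE 0.0843). Sox10, the SOX factor that drives myelin genes together with MYRF, had 20.7, 34.0 and 37.9 CPM in wild type and 26.4, 33.7 and 44.5 CPM in heterozygotes (0.14, SE 0.134). The lowest 3 Sox10 values of each genotype all came from prefixes 119 and 141. Olig1 had a log2 change of -0.0015 (SE 0.0569), the closest to 0 of the 36.

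Genes of newly formed oligodendrocytes had scattered values. Enpp6 had 7.25, 7.77 and 9.78 CPM in wild type and 7.26, 8.26 and 13.0 CPM in heterozygotes (lowest, median, highest). Heterozygous replicates 3, 6 and 7, all females, lay above every wild-type mouse, and the other 4 heterozygotes lay inside the wild-type range (log2 change 0.25, SE 0.139). Gpr17, a receptor of committed precursors that is lost at maturation, had 69.7, 79.5 and 87.2 CPM in wild type and 74.2, 87.2 and 99.2 CPM in heterozygotes (0.12, SE 0.0714). Bcas1, a protein of early myelinating cells, had a value below 0 (-0.14, SE 0.258) and a wild-type range from 46.0 to 151 CPM.

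Among compact myelin and membrane genes, the 2 most abundant per length had values below 0 and the other 4 had values above 0. Mbp had 991, 1137 and 2412 CPM in wild type and 903, 1175 and 1857 CPM in heterozygotes (lowest, median, highest), with a log2 change of -0.18 (SE 0.178). The high wild-type values were those of replicates 5, 6 and 7, all from prefixes 119 and 141. Cldn11 had 137, 169 and 185 CPM in wild type and 151, 196 and 222 CPM in heterozygotes (0.20, SE 0.0802, unadjusted p = 0.0212 by edgeR). Tspan2, a tetraspanin of the sheath, had 144, 154 and 180 CPM in wild type and 133, 184 and 236 CPM in heterozygotes (0.18, SE 0.0969). Mobp had -0.093, Mal 0.17 and Pllp, or plasmolipin, 0.11.

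Genes of the inner tongue, adhesion and junctions gave 5 of 6 values above 0. Mag, the glycoprotein by which the inner myelin layer holds the axon, had 118, 156 and 177 CPM in wild type and 164, 172 and 199 CPM in heterozygotes (lowest, median, highest). Its log2 change was 0.20 (SE 0.0845, unadjusted p = 0.0261 by edgeR), and heterozygotes overlapped the upper part of the wild-type range. Cnp had 296, 347 and 399 CPM in wild type and 355, 385 and 458 CPM in heterozygotes (0.19, SE 0.0745). Mog had 47.1, 49.9 and 63.8 CPM in wild type and 50.0, 55.1 and 71.6 CPM in heterozygotes (0.14, SE 0.0845). Gjb1, the connexin 32 gene, had the highest log2 change of the 36, 0.31 (SE 0.138), at levels of only 6.95 to 10.6 CPM in wild type. Ermn (0.11), a cytoskeletal protein of the sheath, and Anln (-0.0022), a septin scaffold, completed the group.

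Enzyme genes gave 4 of 7 values above 0. Enpp2, or autotaxin, which makes lysophosphatidic acid, had 137, 180 and 205 CPM in wild type and 181, 197 and 222 CPM in heterozygotes (lowest, median, highest), with a log2 change of 0.17 (SE 0.0774). Fa2h, which hydroxylates the fatty acids of myelin galactolipids, had 20.6, 30.8 and 32.3 CPM in wild type and 26.5, 32.3 and 37.1 CPM in heterozygotes (0.23, SE 0.106). Neither passed the adjusted threshold. Ugt8a, the enzyme that makes galactosylceramide, had 0.18 and Galnt6, a mucin-type glycosyltransferase, had 0.18. Aspa, which frees acetate from N-acetylaspartate (-0.087), Car2, carbonic anhydrase 2 (-0.056), and Qdpr, dihydropteridine reductase (-0.063), were below 0.

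Trf, which encodes transferrin, the iron carrier made by mature oligodendrocytes, had the smallest p of the 36. Its level was 174, 203 and 231 CPM in wild type and 213, 228 and 294 CPM in heterozygotes (lowest, median, highest). Of the 7 heterozygotes, 6 had at most 252 CPM, and replicate 4 stood at 294 CPM. The log2 change was 0.27 (SE 0.0817, 1.20-fold, unadjusted p = 0.00427 and adjusted p = 0.962 by edgeR). Gpr37, an orphan receptor of maturing oligodendrocytes, had 59.4, 76.4 and 87.2 CPM in wild type and 67.0, 82.6 and 89.2 CPM in heterozygotes (0.18, SE 0.0934). The other 7 of this group, Apod, Cryab, Gsn, Ndrg1, Lpar1, Ppp1r14a and Plekhh1, had log2 changes from -0.048 to 0.12.

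The title prefix changed the number of genes called without calling any of the 36. Once the prefix replaced sex as a blocking term, 56 genes (0.405%) passed and none was an oligodendrocyte gene, with a smallest adjusted p of 0.140 for Cnp by edgeR, and 13 of the 36 were higher at an unadjusted p under 0.05 (6.2% of all genes). With sex and a term for prefixes 119 and 141 against the rest, 15 genes (0.109%) passed and again none of the 36 (smallest adjusted p 0.175). The authors' deposited table of genotype fold changes also holds no adjusted p under 0.05 for the 36, against 27 of 14160 genes (0.191%). In the authors' deposited table the lowest adjusted p of the 36 is 0.0831, for Trf, with a log2 fold change of 0.22.

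Within prefixes 119 and 141, the genotypes stood further apart. When these 6 mice were fitted alone, 2304 of 13881 genes (16.6%) passed the threshold, and 18 of the 36 were among them. Of the 36, 14 were higher in heterozygotes, against 8.88% of all genes, and 4 were lower, against 7.72%. The 14 that rose were Gpr17, Enpp6, Mal, Cldn11, Tspan2, Mag, Mog, Cnp, Ugt8a, Fa2h, Enpp2, Galnt6, Trf and Gpr37. The 4 that fell were Bcas1, Mbp, Mobp and Car2. Upper-quartile scaling turned the balance over all genes from 1233 higher and 1071 lower to 930 higher (6.7%) and 1369 lower (9.86%), and called 13 of the 36 higher and 6 lower. In the other 4 prefixes fitted alone, no gene (0%) and none of the 36 passed by edgeR. At an unadjusted p under 0.05 there were 609 genes (4.4%) and 3 of the 36, and 2 genes (0.0144%) but none of the 36 were called by DESeq2. Gjb1 alone of the 36 was higher there without overlap of the genotypes (1.56% of all genes), with at most 10.36 CPM in its 4 wild-type mice and at least 10.39 CPM in its 4 heterozygotes.

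The 14 genes that rose in prefixes 119 and 141 did not all stand alike against the other mice. For Mag, Fa2h, Enpp2, Galnt6 and Gpr37 the 3 wild-type mice of these prefixes were below all 8 mice of the other prefixes, whereas for Mal and Tspan2 the 3 heterozygotes were above all 8. How many of all genes show either pattern was not counted. Mag stood at 141, 118 and 140 CPM in the 3 wild-type mice and at 164, 172 and 199 CPM in the 3 heterozygotes, without overlap. In the other prefixes its 4 wild-type mice had 173, 156, 177 and 171 CPM and its 4 heterozygotes 171, 170, 174 and 192 CPM. Thus the wild-type mice of prefixes 119 and 141 were the lowest 3 of all 14, while 2 of the 3 heterozygotes of these prefixes lay inside the range of the other prefixes, 156 to 192 CPM, and the third was the highest of the 14. The log2 change in prefixes 119 and 141 alone was 0.42 (SE 0.0769, 1.34-fold, adjusted p = 0.00105 by edgeR).

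Gpr37 followed the same order. In prefixes 119 and 141 its level was 59.4, 60.0 and 61.8 CPM in wild type and 67.0, 82.6 and 89.2 CPM in heterozygotes. The 8 mice of the other prefixes all had between 76.4 and 87.9 CPM. The 3 wild-type mice were the lowest of the 14, and heterozygous replicate 5 of prefix 119 was the next (log2 change 0.39, SE 0.0698, adjusted p = 0.000246 by edgeR in prefixes 119 and 141 alone). Enpp2 had 172, 137 and 167 CPM in wild type and 199, 197 and 222 CPM in heterozygotes of these prefixes, against 180 to 210 CPM in the other 8 mice (0.38, SE 0.0745). Fa2h had 25.7, 20.6 and 23.6 CPM against 26.5, 32.3 and 36.5 CPM (0.44, SE 0.105). Cldn11 had 169, 137 and 164 CPM against 192, 197 and 222 CPM (0.38, SE 0.0737). In 11 of the 36 all 3 heterozygotes of these prefixes exceeded all 3 wild-type mice, a pattern of 10.8% of all genes, and Cryab alone was lower without overlap (11.3% of all genes).

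**Figure D2:**
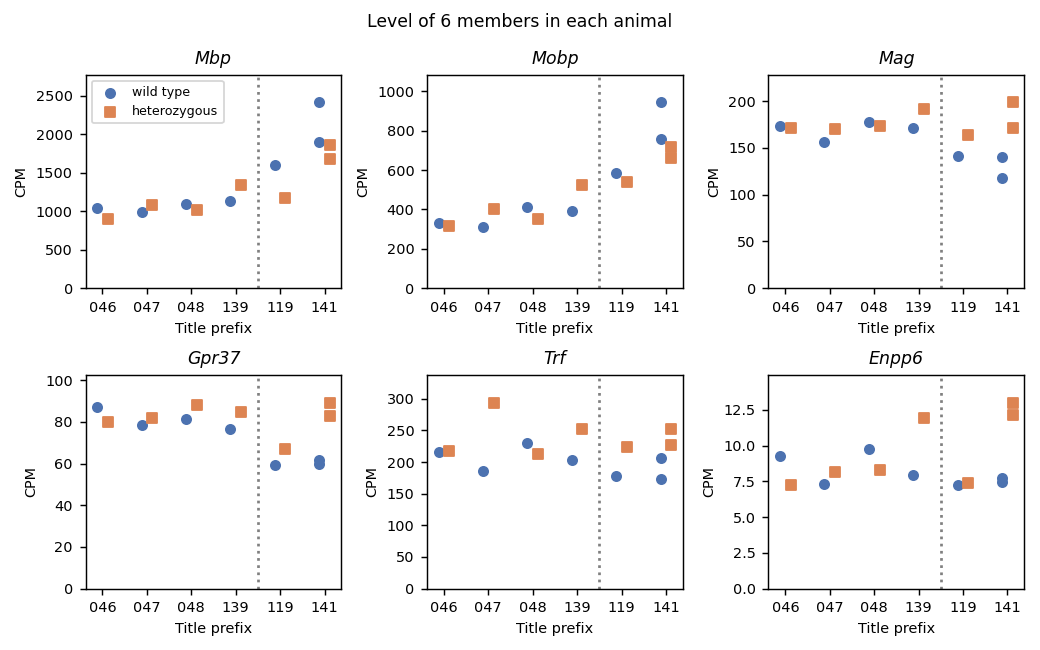
CPM (vertical axis, from 0) of Mbp, Mobp, Mag, Gpr37, Trf and Enpp6 in each mouse, by title prefix (horizontal axis), with wild type as circles and heterozygotes as squares; the dotted line separates prefixes 119 and 141. Mbp and Mobp climb to 2412 and 943 CPM right of the line, highest in a wild-type mouse, whereas Mag and Gpr37 are lowest there in the wild-type mice.

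The genes that fell within prefixes 119 and 141 had the opposite order. Mbp was at 1598, 1893 and 2412 CPM in wild type and at 1175, 1671 and 1857 CPM in heterozygotes there, with the ranges overlapping (log2 change -0.34, SE 0.0758, adjusted p = 0.00446 by edgeR). The other prefixes had 991 to 1137 CPM of Mbp (wild type) and 903 to 1342 CPM (heterozygous). Bcas1 had 99.6, 119 and 151 CPM in wild type and 76.4, 109 and 109 CPM in heterozygotes of prefixes 119 and 141 (-0.33, SE 0.0693). Mobp had 582, 759 and 943 CPM against 540, 661 and 717 CPM (-0.24, SE 0.0694). Car2 had a smaller difference (-0.17, SE 0.0567).

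Of these 18 calls, 10 stood whichever of the 6 mice was left out: Mag, Gpr37, Enpp2, Cldn11, Fa2h, Trf, Cnp, Ugt8a and Tspan2 higher and Bcas1 lower. The share of all called genes that stood in this way was not counted. Mbp was no longer called without wild type replicate 5 or heterozygous replicate 5 of prefix 119 (adjusted p up to 0.0662 by edgeR). Mobp was lost without wild type replicate 7 or heterozygous replicates 6 or 7 (up to 0.295), and Car2 without any single mouse (up to 0.108). Enpp6 was lost without replicates 6 or 7 of either genotype (up to 0.107), Gpr17 without replicate 7 of either genotype (up to 0.0787), and Galnt6 without wild type replicate 6 or heterozygous replicate 7 (up to 0.185). Mal was lost without wild type replicates 5 or 6 or heterozygous replicate 7 (up to 0.206), and Mog without wild type replicates 5 or 6 or heterozygous replicates 5 or 7 (up to 0.311). DESeq2 called 13 of the 36 (10.6% of all genes), and Mog, Mobp, Car2 and Galnt6 were not among them. DESeq2 gave Enpp6 no adjusted p.

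Whether the genotype difference itself differed between the 2 sets of prefixes was tested over all 14 mice. No gene passed by edgeR (0%), while 2036 genes (14.7%) and 10 of the 36 had an unadjusted p under 0.05. DESeq2 called 250 genes (1.81%) and 1 of the 36. The smallest adjusted p of the 36 was that of Mag, at 0.144 (difference of log2 changes 0.36, SE 0.110), followed by Enpp2 (0.35, SE 0.111) and Gpr37 (0.35, SE 0.112). Mbp went the other way (-0.35, SE 0.163). With the prefix as a block, 767 genes (5.55%) passed, among them Mag (adjusted p = 0.0283 by edgeR) and Gpr37 (adjusted p = 0.0292). These made up 5.56% of the 36, near the share of all genes. The gene called by DESeq2 was Mag (adjusted p = 0.0409). With no filter on low counts, 381 genes (1.94%) passed by edgeR, among them Mag and Enpp2 higher and Bcas1 lower. Without wild type replicate 5, Enpp2, Gpr17 and Mag passed by edgeR (6.13% of all genes), and without wild type replicate 4, Enpp2 did (4.06%), a share of the 36 near that of all genes in both fits. In the main edgeR fit of all 14 mice, the genotype change within prefixes 119 and 141 was called for 7 of the 36. These were Mag, Gpr37, Enpp2, Fa2h, Cldn11, Ugt8a and Galnt6, against 4.87% of all genes. The genotype change there had a median of 0.17 over the 36. Within the other prefixes it was called for none (0.00724% of all genes), with a median of 0.056.

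**Figure D3:**
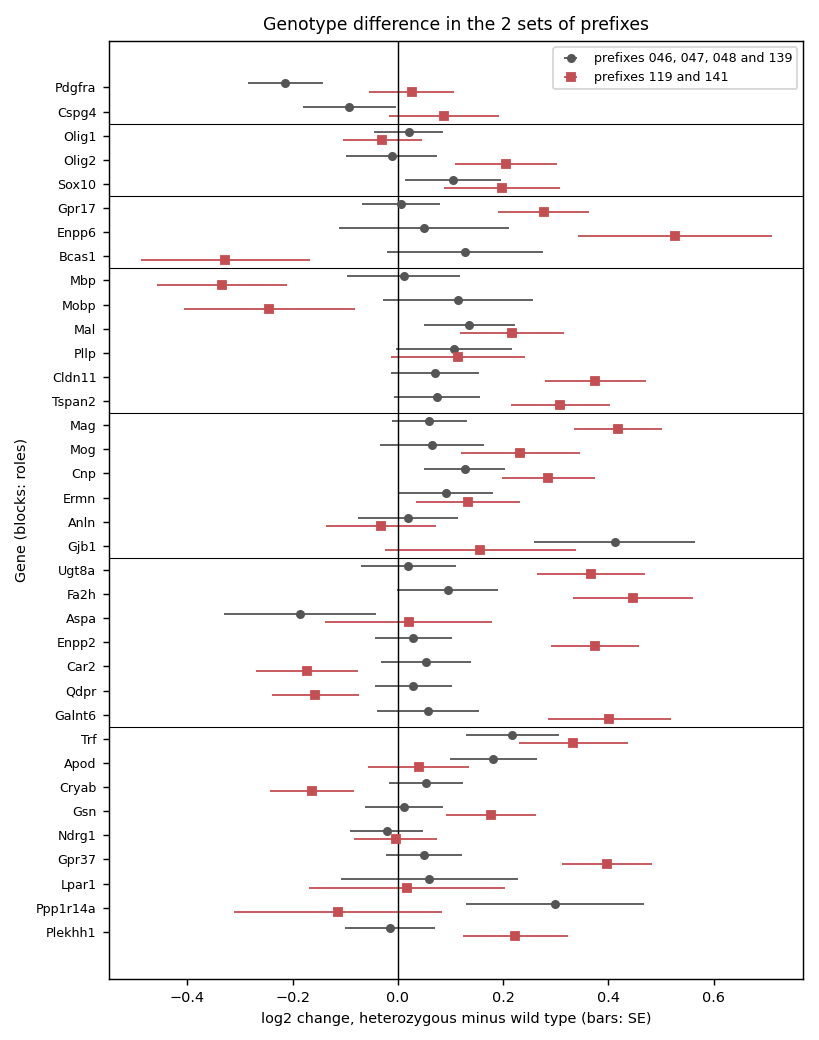
Log2 change of heterozygotes against wild type (horizontal axis, bars are standard errors) for each of the 36 genes (vertical axis, grouped by role) from the fit of all 14 mice, with prefixes 046, 047, 048 and 139 as grey circles and prefixes 119 and 141 as red squares. Grey values lie near 0 for most genes, while the highest red values are 0.53 for Enpp6, 0.45 for Fa2h and 0.42 for Mag, and red values lie below 0 for 10 genes, lowest for Mbp (-0.33), Bcas1 (-0.33) and Mobp (-0.24).

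By roles, the medians within prefixes 119 and 141 were 0.057 for precursor genes, 0.20 for lineage factors, 0.28 for newly formed genes, 0.17 for compact myelin and membrane genes, 0.19 for inner tongue and junction genes, 0.37 for enzymes and 0.039 for carriers and receptors. In the other prefixes the same roles had -0.15, 0.021, 0.050, 0.091, 0.078, 0.030 and 0.054. Both precursor genes were below 0 in the other prefixes and above 0 in prefixes 119 and 141. Among the 6 prefixes taken 1 by 1, Galnt6 was the gene whose heterozygous mean exceeded the wild-type mean in all 6. Its log2 ratio was only 0.010 in prefix 047 and 0.030 in prefix 139. Trf, Cnp, Cldn11, Gpr37, Enpp2, Ugt8a, Mog, Gpr17, Ermn, Gjb1 and Plekhh1 were higher by this rule in 5 prefixes. Pdgfra, Aspa and Qdpr were higher in only 1. The share of all genes with these patterns was not counted.

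The ratio of Mbp to Mag within a library, which does not depend on the scaling between libraries, showed both orders at once. In the other 4 prefixes it was 6.03, 6.33, 6.15 and 6.64 Mbp counts per Mag count in wild type and 5.29, 6.35, 5.86 and 6.997 in heterozygotes. In prefixes 119 and 141 the ratio was 11.3, 16.0 and 17.3 in wild type and 7.18, 9.74 and 9.35 in heterozygotes. All 6 mice of prefixes 119 and 141 thus lay above all 8 others, and the 3 wild-type mice lay above the 3 heterozygotes. Mobp over Gpr37 behaved alike, at 9.81 to 15.3 in wild type and 8.00 to 8.06 in heterozygotes of these prefixes, and at 3.80 to 6.17 in the other 8 mice. Both pairs were chosen after their values were seen, so the ratios are a description.

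**Figure D4:**
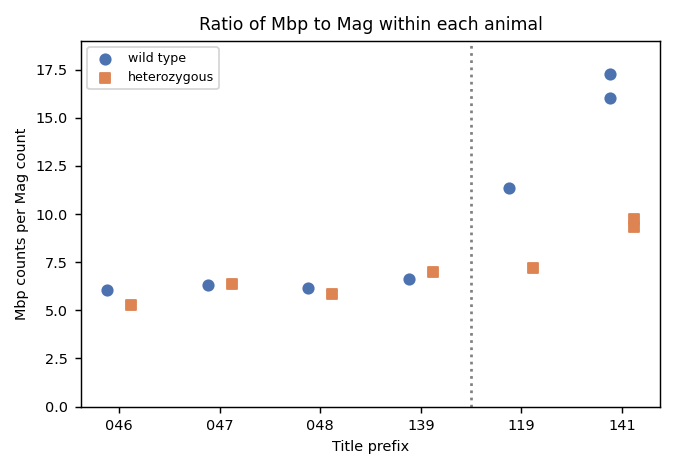
Mbp counts per Mag count (vertical axis, from 0) in each mouse by title prefix (horizontal axis), with wild type as circles and heterozygotes as squares; the dotted line separates prefixes 119 and 141. The ratio lies between 5.29 and 6.997 left of the line and between 7.18 and 17.3 right of it, where wild-type mice are above heterozygotes.

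Markers of other cell types moved within the same 6 mice. All 15 astrocyte genes were lower in heterozygotes of prefixes 119 and 141 fitted alone, with a median log2 change of -0.38, and their levels summed to 14572 to 19501 CPM (wild type) and 13586 to 15699 CPM (heterozygous). In the other prefixes the sums were 10651 to 11793 CPM and 10287 to 11287 CPM. Of 12 microglial genes, 5 were lower there and none higher (sums of 478 to 533 CPM for wild type, 413 to 461 CPM for heterozygotes, against 349 to 470 CPM in the other 8 mice). Excitatory neuron genes gave 4 higher and 1 lower of 10 (sums of 6695 to 7325 and 5684 to 6262 CPM), although the median change was 0.19. Inhibitory neuron genes gave 4 higher of 8, and endothelial and pericyte genes 1 lower of 12. Meningeal genes gave 3 lower of 10, and no choroid plexus or striatal gene was called. The choroid plexus markers Otx2 and Calml4 were under 0.5 CPM in every mouse. Mitochondrial transcripts also moved with genotype there, with the shares given above. The part of these markers and shares in the oligodendrocyte results was not tested.

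Across the 14 mice, 16 of the 36 genes passed the test between title prefixes. With genotype as a term, 4591 genes (33.2%) passed between the 6 prefixes by edgeR. The 16 were Mbp, Mobp, Mal, Pllp, Tspan2, Bcas1, Ermn, Anln, Aspa, Car2, Qdpr, Cryab, Lpar1, Cspg4, Sox10 and Gpr37. Adjusted p by edgeR ran from 2.39e-05 for Mbp to 0.0488 for Lpar1. DESeq2 also called 16 of the 36 (28.6% of all genes), and with no filter on low counts edgeR called 22 (27.6%). Without wild type replicate 7, which had the highest Mbp, Mobp and Bcas1 of all mice, 10 of the 36 were called, against 24.6% of all genes: Mbp, Mobp, Bcas1, Ermn, Anln, Aspa, Car2, Qdpr, Cspg4 and Sox10. These 10 passed whichever of the 14 mice was left out, and the share of all genes that did so was not counted. Of the other 6, Lpar1 was lost in 9 of the 14 such fits, Gpr37 and Tspan2 in 7 each, Pllp in 4, Mal in 3 and Cryab in 2, with an adjusted p by edgeR of up to 0.173 for Gpr37.

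Of these 16, 14 also passed between prefixes 119 and 141 and the other 4. Since these sets were seen in the data first, the following is a description of their levels with the fitted difference (genotype and sex as terms). The fit took mice and not prefixes as units, although mice of 1 prefix correlated with each other. Of the 36, 14 were higher and 6 lower in prefixes 119 and 141, against 19.1% and 19.6% of all genes. The largest differences upward were in Bcas1 (log2 difference 0.88, SE 0.126, 1.84-fold), Mobp (0.82, SE 0.113, 1.76-fold) and Mbp (0.64, SE 0.0915, 1.56-fold), followed by Ermn (0.47), Lpar1 (0.36), a lysophosphatidic acid receptor, Qdpr (0.35), Anln (0.35) and Car2 (0.32). Bcas1, Mobp, Ermn and Qdpr are singled out here after their values were seen. Mobp had 311 to 524 CPM in the 8 mice of the other prefixes and 540 to 943 CPM in the 6 of prefixes 119 and 141. Ermn had 43.4 to 55.9 and 59.2 to 84.4 CPM. Both were higher without overlap, a pattern of 5.56% of the 36 and 5.96% of all genes. Qdpr had 101 to 123 and 115 to 163 CPM.

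Other members of the same cell type were lower in prefixes 119 and 141. Sox10 had 33.7 to 44.5 CPM in the 8 mice of the other prefixes and 20.7 to 31.8 CPM in the 6 of prefixes 119 and 141, without overlap (6.16% of all genes), and its log2 difference was -0.47 (SE 0.0737). Cspg4 (-0.30), Galnt6 (-0.29), Gpr37 (-0.25), Fa2h (-0.24) and Plekhh1 (-0.21) were also lower. Mog (0.070), Cnp (-0.11), Cldn11 (0.019), Trf (-0.12), Mag (-0.17) and Enpp2 (-0.080) did not pass. The 2 precursor genes split, with Pdgfra at 0.18 and Cspg4 at -0.30. Astrocyte genes were higher in the same set, 14 of 15 called, and the mitochondrial share was higher in all 6 mice of prefixes 119 and 141 (1.11% to 1.99%, against 0.571% to 0.860%). Their part in the levels was not tested.

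**Figure D5:**
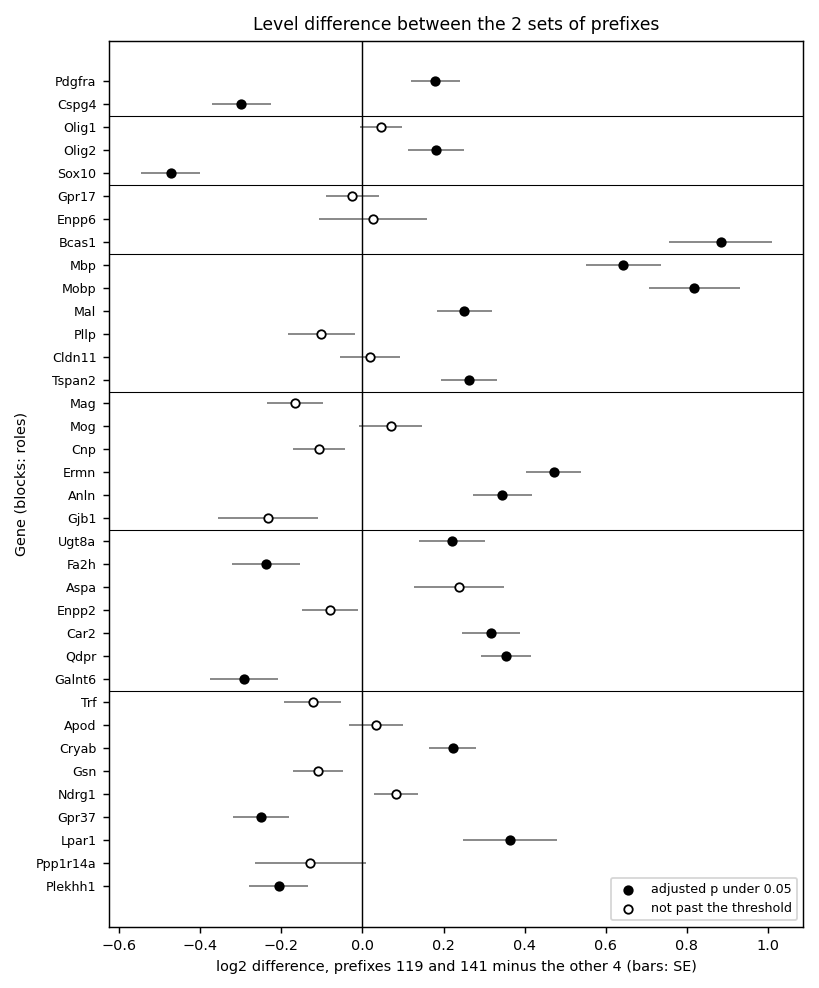
Log2 difference in level between prefixes 119 and 141 and the other 4 prefixes (horizontal axis, bars are standard errors) for each of the 36 genes (vertical axis, grouped by role), from the fit with genotype and sex as terms; filled circles have an adjusted p under 0.05. Bcas1, Mobp and Mbp reach 0.88, 0.82 and 0.64, while Sox10, the lowest, is at -0.47.

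None of the 36 genes passed the test for a genotype change that differs between the sexes. By edgeR no gene passed (0%), and 144 genes (1.04%) and 3 of the 36 had an unadjusted p under 0.05. DESeq2 called no gene either (0%). The 3 were Enpp6 (female minus male log2 change 0.77), Trf (0.35) and Gpr17 (0.29), each with an adjusted p of 1. The difference was above 0 in 31 of the 36, against 49.2% of all genes. The median genotype change was 0.20 in females and 0.0047 in males. Females of both genotypes came from prefixes 047, 139 and 141 and males from 046, 048 and 119, so the sex and the prefix cannot be told apart for a single gene.

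The mice behind the Enpp6 difference can be named. Heterozygous females had 8.15, 11.9, 12.2 and 13.0 CPM of Enpp6 and wild-type females 7.34, 7.98, 7.77 and 7.47 CPM, without overlap. Heterozygous males had 7.26, 8.26 and 7.42 CPM and wild-type males 9.27, 9.78 and 7.25 CPM. Trf in females had 294, 252, 228 and 252 CPM in heterozygotes and 185, 203, 174 and 206 CPM in wild type, again without overlap, while males had 218, 213 and 224 CPM against 217, 231 and 179 CPM. Both genes were picked for their small p between the sexes. In females, 7 of the 36 were higher in heterozygotes without overlap (Cldn11, Enpp2, Enpp6, Gpr17, Gpr37, Gsn and Trf), against 1.31% of all genes. Fitted alone, the females called no gene (0%), with 13 of the 36 higher at an unadjusted p under 0.05 (1.26% of all genes). The males called no gene either, with 219 genes (1.57%) and none of the 36 at an unadjusted p under 0.05.

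Between females and males of both genotypes together, 1 gene passed by edgeR (0.00724%) and none of the 36. DESeq2 called 11 genes (0.0796%) and none of the 36. At an unadjusted p under 0.05 there were 964 genes (6.98%) and 2 of the 36, Mbp (female minus male log2 level 0.45) and Aspa (0.30).

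Genes of the same pathway outside the 36 gave no call for genotype over the 14 mice. Of 12 other precursor genes, 4 were above 0 (median -0.11), and Cacng4, an AMPA receptor auxiliary subunit gene, had -0.25 (SE 0.114) and Gpr37l1 -0.13. Of 10 other newly formed genes, 3 were above 0 (median -0.038), with Nfasc, the node and paranode adhesion gene, at 0.20 (SE 0.0918) and Sema5a at 0.18. Of 18 tested other myelinating genes, 12 were above 0 (median 0.045), with the protease gene Adamts4 at 0.24 (SE 0.0883) and Tmem88b at 0.18. Of 18 regulators of differentiation, 11 were above 0 (median 0.024), with Sox8 at 0.23 and Myrf, the membrane-bound factor that switches on myelin genes, at 0.20 (listed as Gm98). Of 16 cholesterol synthesis genes, 10 were above 0 (median 0.019), with Sqle at 0.11. None of these 74 passed by edgeR with sex, the set or the prefix block as a term.

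Within prefixes 119 and 141 fitted alone, the first 4 of these lists gave 1 precursor gene higher and 1 lower, 3 newly formed genes higher and 1 lower, 3 myelinating genes higher and 1 lower, and 2 regulators higher and 1 lower. Nfasc (0.41), Sema5a (0.43), Tmem88b (0.31), Adamts4 (0.30) and Myrf (0.35) were among those higher, with Gpr37l1 (-0.24) lower. The background of that fit was 16.6% of all genes.

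Single mice held many of the extremes. Heterozygous replicate 7 of prefix 141 had the highest level of 13 of the 36, among them Mag, Enpp6 and Gpr37. Wild type replicate 7 of the same prefix had the highest of 8, among them Mbp, Mobp and Bcas1. Wild type replicate 6, also of prefix 141, had the lowest of 10, among them Sox10, Mag and Enpp2. These 3 mice share 1 prefix and 1 sex. How many of all genes have their highest or lowest level in these mice was not counted.

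Some values are less certain because reads of overlapping genes could be mixed. No source used here gives the strand used for counting. In the later annotation Bcas1, Gpr17, Pdgfra, Olig1, Pllp, Tspan2, Ermn, Qdpr, Galnt6, Cryab, Ndrg1 and Plekhh1 share exon bases with a gene on the other strand, and Trf with a transcript on its own strand. Mbp, Mobp, Mag, Mog, Cnp, Cldn11, Enpp2, Enpp6, Fa2h, Gpr37, Sox10 and Cspg4 do not.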

How the data were processed

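RNA sequencing of cortex from 14 mice was analysed, 7 per genotype. The authors deposited whole-number counts of reads per gene symbol with no normalization; the submitters' processing notes name Trim Galore, Bowtie, STAR, bedtools and the mm9 build, without versions or roles. No source used here states the counting rule. The deposited table also holds the authors' own log2 fold change, test statistic (a score with no fixed range), p-value and adjusted p-value for genotype, per the file headers.

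Of 34193 symbols, 14540 had no read. After filterByExpr by genotype, 13815 genes holding 99.9% of counts were tested in edgeR 4.0.16 under R 4.3.3 and limma 3.58.1 (robust quasi-likelihood F test, TMM scaling). P-values were adjusted by Benjamini-Hochberg over all tested genes (threshold 0.05). CPM used TMM-scaled libraries. The comparisons were genotype (sex as a term), genotype by set of prefixes, genotype by sex, title prefix (genotype as a term) and sex (genotype as a term). The tests were run on simulated counts first. Alternatives were DESeq2 1.42.0, no filter, upper-quartile factors, each mouse left out, the prefix as a block, a set term, no covariate and each set alone. Other fits were chosen after seeing the data: each sex alone, prefix 141 alone, the set in place of the prefix, and each mouse left out within a set.

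The title prefix was taken to pair mice because deviations from genotype means correlated at 0.200 to 0.517 in all 9 pairs of heterozygous and wild-type mice of 1 prefix, and 11 of 14 mice correlated best with their own prefix. These mice also share sex and set.

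The 36 genes, the neighbouring lists and the sets of prefixes were chosen with earlier results of these data known. Genes given mouse by mouse were Mbp and Mog, any called for genotype over all mice or for its difference between sets or sexes, the 2 with the smallest genotype p in each role, and the 2 with the smallest p for genotype by sex. Mobp, Bcas1, Ermn and Qdpr were added after their values were seen. Each neighbouring list is represented by its 2 smallest p, except that 1 such gene is not reported here. Hmgcs1 was not used here, and Mbnl3 was too low to test. Exon lengths and overlaps came from GENCODE M21, another build than the counts.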

Additional observations from a re-analysis of the deposited data

Results flagged for a closer look

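Among 72 groups of 7 mice (36 genes in each genotype), 2 had a mouse whose gap to the nearest other mouse exceeded Dixon's 95% limit for 7 values as a share of the group's range. Chance flags about 1 in 20 groups. Wild type replicate 7 (prefix 141) had the highest Pdgfra of its genotype, 78.3 CPM, with the next at 75.2 and the lowest at 72.9 CPM. Heterozygous replicate 5 (prefix 119) had the lowest Gpr37 of its genotype, 67.0 CPM, with the next at 80.0 and the highest at 89.2 CPM.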

How the results depend on the processing

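Of 833 alternatives to the values and counts reported, 720 were gene values and 113 were counts of the 36 genes. Of the gene values, 661 kept the side of the threshold and, where they had a sign, the direction. Another 26 lost the threshold, 20 passed it and 13 changed sign. Of the counts, 107 stayed within 1.5 times of the main count, and 6 moved further or left 0. The number of the 36 genes called for genotype over all mice, for genotype by sex and for sex stayed 0 under every alternative that kept mice of both sets of prefixes. In prefixes 119 and 141 alone, 18 were called (16.6% of all genes), 12 to 17 with 1 mouse left out (8.82% to 17.1%), 19 with no filter (13.1%) or upper-quartile factors (16.6%), 13 with DESeq2 (10.6%) and 14 with prefix 141 alone (16.8%). For genotype by set of prefixes it was 1 with DESeq2 (1.81% of all genes), 3 with no filter (1.94%) and 2 with the title prefix as a replicate block (5.55%). With 1 mouse left out it was 0 to 3 (0% to 6.13%). For title prefix it was 10 to 19 with 1 mouse left out (24.6% to 34%) and 22 with no filter (27.6%). The block changed no other call of the 36, and the count of all genes called for genotype rose from 2 to 56 with it, to 15 with the set term and to 11 with DESeq2. Of the values that changed sign, in the other 4 prefixes alone Mbp had 0.018 and Olig2 -0.0069, and in prefixes 119 and 141 alone Pdgfra had 0.031 and Cspg4 0.093. In males alone Mog had -0.0063, Pdgfra 0.016, Cspg4 0.17, Enpp6 -0.19, Gpr17 -0.044 and Tspan2 -0.0095. With 1 mouse left out, Cspg4 ran from -0.078 to 0.057. The cause was not tested. Depth limits Enpp6, Gjb1 and Ppp1r14a most, the 3 genes with the lowest mean CPM of the 36.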
